A study of Mus musculus with 9 samples.

Results

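The genes described here are the Rap GTPases and a set of their regulators in the mouse. There are 9 of them, the GTPases Rap1a, Rap1b, Rap2a, Rap2b and Rap2c, the guanine nucleotide exchange factors Rapgef1, Rapgef2 and Rapgef6, and the GTPase-activating protein Rap1gap2. They were taken by symbol from tables of 38926 gene symbols, and all 9 were among the 12663 genes with enough reads to be tested. The list was selected on the differences measured between these hairpin and control libraries, which were in view when it was drawn up, so the values of the 9 genes in every comparison are given as a description, without a test.

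Rap proteins are small GTPases of the Ras family that switch between an inactive form bound to GDP and an active form bound to GTP. Exchange factors load GTP, GTPase-activating proteins return the protein to the inactive form, and a lipid anchor at the carboxyl end holds it at membranes. In blood cells Rap1 is best known for switching integrins to their adhesive state after signals from chemokine, cytokine and antigen receptors. Rap2 proteins use partly different effectors, among them kinases that act on the cytoskeleton and on the Hippo pathway.

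The cells were a murine leukaemia driven by the fusion protein MLL-AF9, which the labels call a cell line, used after tertiary transplantation. They were transduced with short hairpin RNAs (shRNAs), which lower a target's RNA by RNA interference. The groups were shRNA-1 against Syncrip, shRNA-2 against Syncrip and a control hairpin, each with 3 libraries, and all were collected 4 days after transduction. The control hairpin is named as luciferase in the design text and as scrambled in the sample labels, and the sources used here do not settle which it was. The design text describes each of the 9 samples as separately transduced and processed. On that description p-values measure the spread between such cultures of 1 leukaemia, which the counts themselves cannot show. The sources used here do not say whether separate mice or a selection for transduced cells were used. Total RNA was copied from an oligo-dT primer, so reads come mainly from polyadenylated RNA.

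The libraries held 9559638 to 13416141 counts with shRNA-1, 14953491 to 15915940 with shRNA-2 and 13683660 to 19483923 with the control. Syncrip, an RNA-binding protein and the target of both hairpins, stood at 17.8 ± 2.13 CPM, counts scaled to a common library size, with shRNA-1, 56.7 ± 9.05 CPM with shRNA-2 and 227 ± 17.5 CPM with the control (SD, n = 3 each). Syncrip RNA was thus 12.8-fold lower in the shRNA-1 libraries and 4.00-fold lower in the shRNA-2 libraries (adjusted p = 3.79e-07 and 2.19e-06, edgeR quasi-likelihood test). Genes of ribosomal RNA took 11.98% to 19.3% of the counts with shRNA-1, 6.10% to 15.8% with shRNA-2 and 4.77% to 8.29% with the control, and this share moved with the groups. The 7 markers of leukaemic myeloid cells were all detected, with summed levels of 1032 to 1094 CPM with shRNA-1, 1184 to 1360 CPM with shRNA-2 and 1213 to 1323 CPM with the control. Across the 12663 genes tested, a gene was called when its Benjamini-Hochberg adjusted p was under 0.05.

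The 5 GTPases lie on 4 chromosomes of the mm10 build. Rap1a is at chr3:105727267-105801336 and Rap1b at chr10:117813871-117846035, both on the minus strand. Rap2a is at chr14:120478444-120507194 and Rap2b at chr3:61361638-61368430, both on the plus strand, and Rap2c is at chrX:51003912-51018018 on the minus strand. The coding sequences are short and alike, with 552 bases in each Rap1 gene and 549 bases in each Rap2 gene. Rap1a and Rap1b shared 81.7% of aligned coding bases. Among the Rap2 genes, Rap2a was closer to Rap2b (82.9%) than to Rap2c (76.0%), and Rap2b and Rap2c shared 71.2%. A Rap1 and a Rap2 gene shared 58.5% to 62.8%. Despite this likeness, no stretch of 50 bases was common to any pair of the 5 GTPases, so reads of that length or longer could be told apart between them.

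The promoters of the 3 Rap2 genes are shown because these near relatives moved by different amounts with the 2 hairpins. The sequences are from RefSeq on GRCm38.p6, whose coordinates are those of mm10, and run 5′ to 3′ in the sense of the gene, with 250 bases before and 50 bases after the start. Capitals mark matches to any of 6 motifs, searched on both strands. These were the E-box CACGTG, the cAMP response element TGACGTCA, the AP-1 site TGAGTCA, a PU.1 site GAGGAAGT, an ETS site CCGGAAGT and the GC box GGGCGG. The Rap2a entry is chr14:120478211-120478510 (plus strand), the Rap2b entry is chr3:61364257-61364556 (plus strand) and the Rap2c entry is chrX:51017969-51018268 (minus strand).
Rap2a: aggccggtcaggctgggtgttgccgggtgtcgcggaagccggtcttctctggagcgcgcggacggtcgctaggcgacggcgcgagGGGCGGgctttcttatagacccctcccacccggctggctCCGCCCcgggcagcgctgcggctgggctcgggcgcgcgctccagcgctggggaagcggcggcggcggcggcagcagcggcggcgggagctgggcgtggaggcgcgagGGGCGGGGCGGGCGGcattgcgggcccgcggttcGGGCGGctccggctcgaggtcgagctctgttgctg
Rap2b: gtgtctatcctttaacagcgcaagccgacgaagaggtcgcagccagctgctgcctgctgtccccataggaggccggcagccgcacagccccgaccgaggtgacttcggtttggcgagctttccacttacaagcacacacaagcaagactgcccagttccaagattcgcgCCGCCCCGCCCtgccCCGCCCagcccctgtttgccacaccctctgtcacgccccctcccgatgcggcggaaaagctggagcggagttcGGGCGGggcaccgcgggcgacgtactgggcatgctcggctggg
Rap2c: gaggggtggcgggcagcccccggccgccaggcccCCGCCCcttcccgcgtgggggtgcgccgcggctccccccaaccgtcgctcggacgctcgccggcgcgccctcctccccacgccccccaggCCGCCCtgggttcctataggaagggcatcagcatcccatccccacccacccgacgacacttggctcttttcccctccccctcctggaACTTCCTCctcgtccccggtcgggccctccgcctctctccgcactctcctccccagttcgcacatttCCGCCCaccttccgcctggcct
Every capital run above is a GC box, alone or overlapping another, except the single PU.1 match of Rap2c, read on the opposite strand. Rap2a had 6 GC box matches, Rap2b 4 and Rap2c 3. Of 32851 mouse promoters of the same length, 35.7% held a GC box and 3.20% held the PU.1 letters, while the E-box stood in 7.15%, the cAMP response element in 1.79%, the AP-1 site in 5.20% and the ETS site in 3.89%. The 3 promoters were 77.7%, 66.3% and 73.7% G or C for Rap2a, Rap2b and Rap2c, against a median of 52.7% over all promoters. Entries were found for 8 of the 9 genes, Rap1a not among them, and the cAMP response element was matched once, in Rap1b. The 2 RefSeq starts of Rapgef2 held none of the 6 motifs and had 44.0% and 45.0% G or C. A match is a string of letters in this window and was not examined as a binding site.

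In both knockdowns all 5 GTPase transcripts were higher than in the control, Rapgef1 and Rapgef6 were lower, and Rap1gap2 was higher. With shRNA-1, 6 of the 9 genes were called higher and 2 lower, beside 17.4% of all tested genes called higher and 17.3% called lower. With shRNA-2, 7 were called higher and 2 lower, beside 24.4% and 24.2% of all tested genes. The same 6 genes were called higher with both hairpins and the same 2 lower, where 9.24% and 9.57% of all tested genes were called in the same direction with both. These counts follow from how the list was chosen. Without control replicate 2, 4 of the 9 were called higher with each hairpin. With shRNA-1, 5 were called higher without shRNA-1 replicate 2 or 3 or control replicate 3. With shRNA-2, 5 were called higher without control replicate 3, and 6 without shRNA-2 replicate 1 or 3 or control replicate 1. Leaving out shRNA-2 replicate 2 or either of control replicates 2 and 3 left 1 called lower with shRNA-2. The 5 GTPases, Rapgef1, Rapgef6 and Rap1gap2 kept their direction with both hairpins under every scaling tried. When the share of ribosomal RNA entered the fit as a covariate, Rap1b (0.38), Rap2a (0.21), Rap2b (0.46), Rapgef1 (-0.41) and Rapgef6 (-0.55) were no longer called with shRNA-1, nor was Rap2c (0.32) with shRNA-2. Scaling to total counts ended the calls of Rap1b (0.26) and Rap2a (0.20) with shRNA-1 and of Rap1a (0.21), Rap2c (0.17), Rapgef2 (0.48) and Rap1gap2 (0.41) with shRNA-2. Both comparisons use the same 3 control libraries. In bulk RNA, fewer cells of a type and less RNA per cell cannot be told apart.

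**Figure D1:**
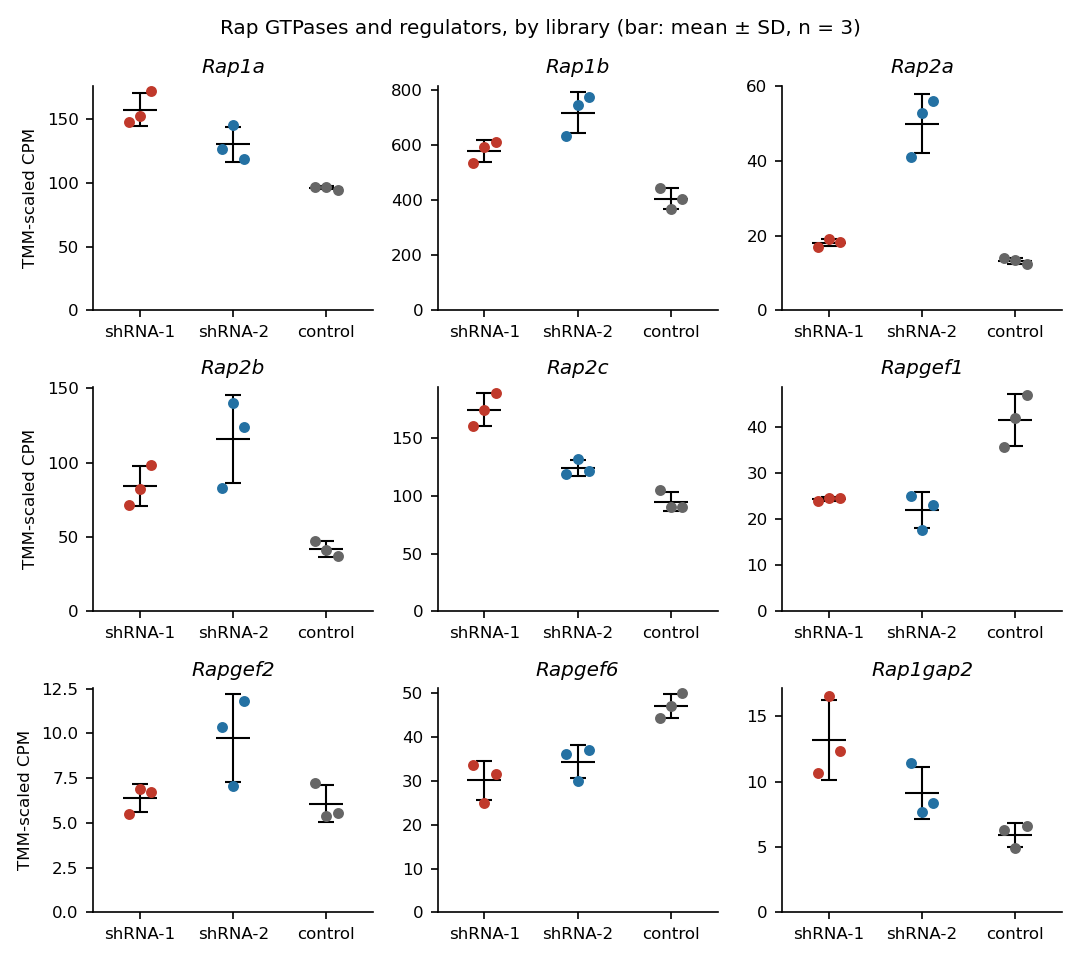
TMM-scaled CPM of the 9 genes in each library, with a panel per gene, points for libraries, long bars for the mean and whiskers for the SD (n = 3). All 3 libraries of each knockdown lie above all 3 controls for the 5 GTPases and Rap1gap2 and below them for Rapgef1 and Rapgef6, while Rapgef2 overlaps the control with either hairpin.

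Rap1b, the most abundant of the GTPases, had 534, 593 and 611 CPM with shRNA-1 and 634, 747 and 777 CPM with shRNA-2, against 446, 368 and 405 CPM with the control. Every knockdown library lay above every control, and every shRNA-2 library above every shRNA-1 library. Against the control this was a log2 fold change of 0.51 ± 0.13 (SE) for shRNA-1 and 0.82 ± 0.13 for shRNA-2. The shRNA-1 call was lost without control replicate 2 (0.44).

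Rap1a, its close relative with the same switch function, had 147, 152 and 172 CPM with shRNA-1 and 126, 146 and 119 CPM with shRNA-2, against 97.0, 96.9 and 94.7 CPM with the control. Here the order of the hairpins was turned round, with every shRNA-1 library above every shRNA-2 library. Rap1a had a log2 fold change of 0.71 ± 0.12 for shRNA-1 and 0.44 ± 0.12 for shRNA-2. Of the 50-base stretches of Rap1a, 9.46% also occur in the processed copies Gm9392 and Rap1a-ps2, and Gm9392 itself was counted at 2.08 to 5.08 CPM over the 9 libraries, so a small part of the Rap1a signal could be split with it.

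Rap2a, which binds the kinases TNIK and MAP4K4, showed the widest range of the 9 genes. It had 17.0, 19.0 and 18.4 CPM with shRNA-1 and 41.1, 52.8 and 56.0 CPM with shRNA-2, against 14.0, 13.5 and 12.4 CPM with the control. The 3 groups did not overlap, and the shRNA-2 libraries stood far above the other 6. The log2 fold change was 1.91 ± 0.14 with shRNA-2, a 3.75-fold difference, and 0.45 ± 0.14 with shRNA-1. The shRNA-1 call was lost when shRNA-1 replicate 2 or 3 or control replicate 2 or 3 was left out, at 0.40 to 0.45. The shRNA-2 value lay between 1.69 and 2.05 over 19 alternatives and was called in each, but these reuse the libraries that the gene was selected on.

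Rap2b had 71.8, 82.4 and 98.7 CPM with shRNA-1 and 82.9, 140.3 and 124 CPM with shRNA-2, against 47.7, 41.0 and 37.3 CPM with the control. All 6 knockdown libraries were above the controls, and shRNA-2 replicate 1 fell among the shRNA-1 libraries. Rap2b had a log2 fold change of 1.01 ± 0.19 for shRNA-1 and 1.46 ± 0.19 for shRNA-2. Rap2b is overlapped on the other strand by B430305J03Rik and Gm37696, which cover 57.3% of its 50-base stretches. No source used here gives the strand setting of the counting. It is thus not known whether reads in the overlap were counted for Rap2b, for a neighbour or for neither. B430305J03Rik was counted at 1 to 7 reads in each library.

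Rap2c had 161, 174 and 189 CPM with shRNA-1 and 119, 132 and 122 CPM with shRNA-2, against 105, 90.2 and 90.5 CPM with the control. The groups did not overlap, and here shRNA-1 was the highest. In log2 fold change, shRNA-1 stood at 0.88 ± 0.12 and shRNA-2 at 0.39 ± 0.12. The shRNA-2 call was lost without control replicate 2 (0.35) or control replicate 3 (0.37).

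**Figure D2:**
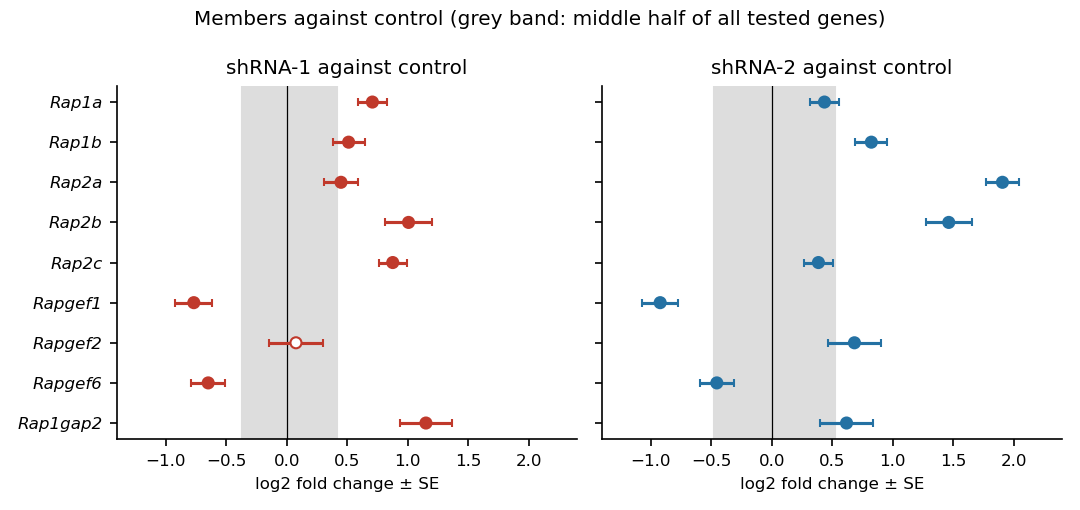
Log2 fold change ± SE of each gene against the control, for shRNA-1 on the left and shRNA-2 on the right, with filled points for genes called over all tested genes and a grey band for the middle of all tested genes (between the quartiles). Rap2a lies at 1.91 with shRNA-2 and at 0.45 with shRNA-1, and Rapgef2 with shRNA-1 is the only open point.

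Added together, the 5 GTPases made up 1014 ± 79.2 CPM with shRNA-1 and 1140 ± 118 CPM with shRNA-2, against 653 ± 50.9 CPM with the control (SD, n = 3 each). Rap1b supplied most of it, with 57.2% ± 1.00 of the sum with shRNA-1, 63.1% ± 1.77 with shRNA-2 and 62.2% ± 1.55 with the control. Rap2c took 17.2% ± 0.155, 10.98% ± 0.871 and 14.6% ± 0.383 of the sum in the same order of groups. Rap2a took 1.79% ± 0.0953 with shRNA-1 and 4.37% ± 0.292 with shRNA-2, against 2.04% ± 0.152 with the control. The make-up of the Rap2 RNA therefore differed by hairpin. Rap2a reads were 0.0970 to 0.109 of Rap2c reads with shRNA-1 and 0.344 to 0.460 with shRNA-2, against 0.134 to 0.150 with the control.

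**Figure D3:**
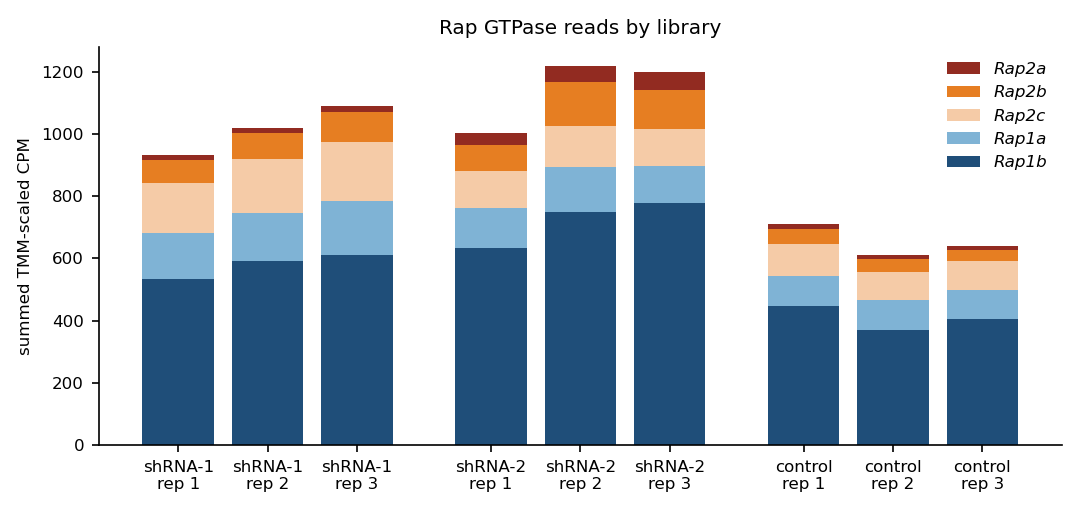
Summed TMM-scaled CPM of the 5 Rap GTPases in each library, stacked by gene, with shRNA-1 and shRNA-2 left of the control. The 6 knockdown libraries are taller than the 3 controls, Rap1b is the largest block in every library, and the Rap2a block is tallest in the shRNA-2 libraries.

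Per length of the longest annotated transcript, the order of the first 3 genes was the same in all groups. Rap1b stood at 213 ± 14.7 CPM per kilobase with shRNA-1, 264 ± 27.7 with shRNA-2 and 149 ± 14.1 with the control. Rap1a followed at 65.3 ± 5.41, 54.1 ± 5.77 and 40.0 ± 0.533 CPM per kilobase, and Rap2c at 49.3 ± 4.00, 35.1 ± 1.94 and 26.9 ± 2.39 CPM per kilobase, in the same order of groups. These 3 did not overlap within any group. The places below them changed. With shRNA-1, Rap2b (12.4 ± 2.00) came next and stood apart. Rap2a (4.33 ± 0.246) lay above Rapgef1 (3.81 ± 0.0603) without overlap, but Rapgef6 (3.68 ± 0.548) overlapped both. With shRNA-2, Rap2b (17.0 ± 4.36) and Rap2a (11.9 ± 1.87) overlapped, as did Rapgef6 (4.20 ± 0.465) and Rapgef1 (3.42 ± 0.608). In the control, Rapgef1 (6.49 ± 0.880), Rap2b (6.18 ± 0.775) and Rapgef6 (5.75 ± 0.342) followed each other with overlap, and Rap2a came after them, apart, at 3.18 ± 0.203 CPM per kilobase. Rap1gap2 and Rapgef2 held the last places in every group, at 2.01 ± 0.465 and 0.916 ± 0.111 with shRNA-1, 1.39 ± 0.304 and 1.40 ± 0.351 with shRNA-2, and 0.905 ± 0.139 and 0.871 ± 0.148 with the control. Libraries primed at the poly(A) tail favour the tail end of a transcript, so division by full length lowers long genes. The RefSeq start of Rap2b lies inside its longest annotated transcript, so its value per kilobase may also be too low.

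Among the regulators, Rapgef1 is the exchange factor that Crk adaptors bring to activated receptors, at chr2:29619720-29740978 on the plus strand. It had 23.9, 24.6 and 24.6 CPM with shRNA-1 and 25.1, 17.6 and 23.0 CPM with shRNA-2, against 35.7, 41.8 and 47.0 CPM with the control. All knockdown libraries were below all controls, and the 2 hairpins overlapped. In log2 fold change, shRNA-1 stood at -0.77 ± 0.15 and shRNA-2 at -0.92 ± 0.15. Its overlapping pseudogene Gm9823 had no reads in any of the 9 libraries.

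Rapgef6, an exchange factor with a PDZ domain at chr11:54522847-54699285 on the plus strand, had 33.6, 25.04 and 31.7 CPM with shRNA-1 and 36.1, 30.0 and 37.0 CPM with shRNA-2. The controls had 44.3, 47.1 and 49.9 CPM, and none of the knockdown libraries reached them. Rapgef6 had a log2 fold change of -0.65 ± 0.14 for shRNA-1 and -0.45 ± 0.14 for shRNA-2. Leaving out shRNA-2 replicate 2 (-0.36) or either of control replicates 2 (-0.45) and 3 (-0.39) ended the shRNA-2 call.

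Rapgef2, the closest relative of Rapgef6, at chr3:79062516-79286517 on the minus strand, was the member with the fewest reads, 50 to 175 per library. It had 5.49, 6.91 and 6.74 CPM with shRNA-1 and 10.4, 7.04 and 11.8 CPM with shRNA-2, against 7.25, 5.37 and 5.57 CPM with the control. The shRNA-1 libraries lay among the controls, and shRNA-2 replicate 2 lay below control replicate 1. The log2 fold change was 0.08 ± 0.22 with shRNA-1, which was not called, and 0.68 ± 0.22 with shRNA-2. Leaving out shRNA-2 replicate 3 (0.53) or either of control replicates 2 (0.62) and 3 (0.64) ended the shRNA-2 call. The 3 exchange factors together had 60.9 ± 3.76 CPM with shRNA-1 and 66.0 ± 9.87 CPM with shRNA-2, against 94.7 ± 7.60 CPM with the control (SD, n = 3 each).

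Rap1gap2 encodes a GTPase-activating protein that turns Rap1 off, known from human platelets, and lies at chr11:74383356-74610915 on the minus strand. It had 10.7, 16.6 and 12.4 CPM with shRNA-1 and 11.4, 7.66 and 8.37 CPM with shRNA-2, against 6.29, 4.91 and 6.63 CPM with the control. The knockdown libraries were all above the controls and overlapped each other. The log2 fold change was 1.15 ± 0.22 with shRNA-1, a 2.22-fold difference, and 0.62 ± 0.22 with shRNA-2. Leaving out shRNA-2 replicate 1 (0.44) or either of control replicates 1 (0.67) and 2 (0.51) ended the shRNA-2 call. Platelet markers also moved. Summed over 8 of them, levels were 10.9 to 34.0 CPM with shRNA-1 and 15.8 to 77.9 CPM with shRNA-2, against 5.63 to 7.09 CPM with the control, and 3 of the 8 had enough reads to be tested, of which 1 rose with shRNA-1 and 2 rose with shRNA-2. Some receptor genes of the lineage were low, with Gp1ba and Gp6 at 0 or 1 count in every library. Itga2b stood at 0.0675 to 0.884 CPM and Gp9 at 0.922 to 2.52 CPM, each with its highest value in a control library. The higher platelet sums with the hairpins thus came from the other markers of the list, which were Pf4, Ppbp, Gp1bb and Treml1. Their single values are not given here, so the low genes named above do not stand for the list. Whether platelet-lineage RNA had a part in the Rap1gap2 values was not tested.

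The libraries of the 2 groups did not overlap for 8 of the 9 genes with shRNA-1 and for 8 of the 9 with shRNA-2, against 52.6% and 55.4% of all tested genes. Between the hairpins, 5 of the 9 did not overlap, against 49.8% of all tested genes. The median log2 fold change of the 9 genes was 0.51 with shRNA-1 and 0.62 with shRNA-2, beside 0.02 and 0.00 over all tested genes. Like the counts of calls, these counts and medians follow from how the list was chosen and are a description.

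The hairpins were also compared with each other, shRNA-1 over shRNA-2. Of all tested genes, 19.7% were called higher and 21.3% lower with shRNA-1, and of the 9 genes 1 was called higher and 2 lower. Rap2a was lower with shRNA-1, at -1.46 ± 0.14 on the log2 scale, or 2.75-fold. Rap2c was higher with shRNA-1, at 0.49 ± 0.12. Both kept these calls in 19 of 19 alternatives, which reuse the libraries that the genes were selected on. Rapgef2 was lower with shRNA-1 at -0.61 ± 0.22, a call lost in 13 of 19 alternatives, including without any 1 of 7 libraries (-0.67 to -0.45). These 7 were all but shRNA-2 replicate 2 and control replicate 1. Rap1a (0.27 ± 0.12) and Rap1gap2 (0.53 ± 0.22) stood on the side of Rap2c, and Rap1b (-0.31 ± 0.13) and Rap2b (-0.46 ± 0.19) on the side of Rap2a, without being called. Each gained a call when 1 library was left out, Rap1a without shRNA-2 replicate 2 (0.36), Rap1b (-0.41), Rap2b (-0.66) and Rap1gap2 (0.72) without shRNA-2 replicate 1, and Rap1gap2 also without shRNA-1 replicate 1 (0.66).

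RNA of markers of other cell types moved with the groups beside these differences. Bulk RNA does not tell a change in the cells present from a change in RNA within the same cells. Summed over 10 monocyte and macrophage markers, levels were 151 to 256 CPM with shRNA-1 and 619 to 1080 CPM with shRNA-2, against 140 to 177 CPM with the control. Of the 9 tested, 2 rose with shRNA-1 and 9 rose with shRNA-2. The 8 neutrophil markers summed to 29064 to 37216 CPM with shRNA-1 and 35287 to 50185 CPM with shRNA-2, against 12195 to 12661 CPM with the control, and 8 rose with shRNA-1 while 7 rose and 1 fell with shRNA-2. Of the leukaemic myeloid markers, 4 of 7 fell with shRNA-1, namely Ptprc, Hoxa9, Meis1 and Cebpa. With shRNA-2 1 rose, Itgam (log2 fold change 0.94), and 3 fell, Kit (-0.81), Hoxa9 (-1.44) and Meis1 (-0.37). Hoxa9 averaged 272 CPM with shRNA-1 and 147 CPM with shRNA-2, against 399 CPM with the control. The 6 T cell markers summed to 2.00 to 2.75 CPM with shRNA-1 and 3.10 to 4.80 CPM with shRNA-2, against 2.64 to 3.27 CPM with the control. Cd3g and Cd8a were at 0, and of 2 tested, 1 rose with shRNA-2. The 6 stromal and endothelial markers summed to 5.38 to 8.49 CPM with shRNA-1 and 20.1 to 23.8 CPM with shRNA-2, against 16.8 to 29.5 CPM with the control. Col3a1 was at 0, and of 3 tested, 1 fell with shRNA-1 and 2 rose with shRNA-2. B cell markers summed to at most 17.8 CPM with Cd79a at 0 and erythroid markers to at most 1.85 CPM, and the 1 gene tested in each was not called. The part of the marker shifts in the values of the 9 genes was not tested.

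Transcript length also went with the fold changes. When tested genes were put into 10 bins of like size by length, the median log2 fold change with shRNA-1 ran down to -0.33 in the longest bin, against 0.42 in the shortest, and with shRNA-2 it was -0.24 in the longest and 0.14 in the shortest. Rap1a, Rap1b, Rap2c and Rap2a fell in the middle bins, 4 to 7, and Rapgef1 in bin 9. Rap2b, Rapgef2, Rapgef6 and Rap1gap2 were in the longest bin. By longest GENCODE transcript, Rap2b and Rap1gap2 were higher in both knockdowns in a length class whose median was lower. The RefSeq start of Rap2b lies inside that transcript, so Rap2b may belong to a bin of shorter genes. With the length trend taken out, Rapgef6 lost its call with both hairpins (-0.29 and -0.23), and no other gene of the 9 lost one against the control.

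**Figure D4:**
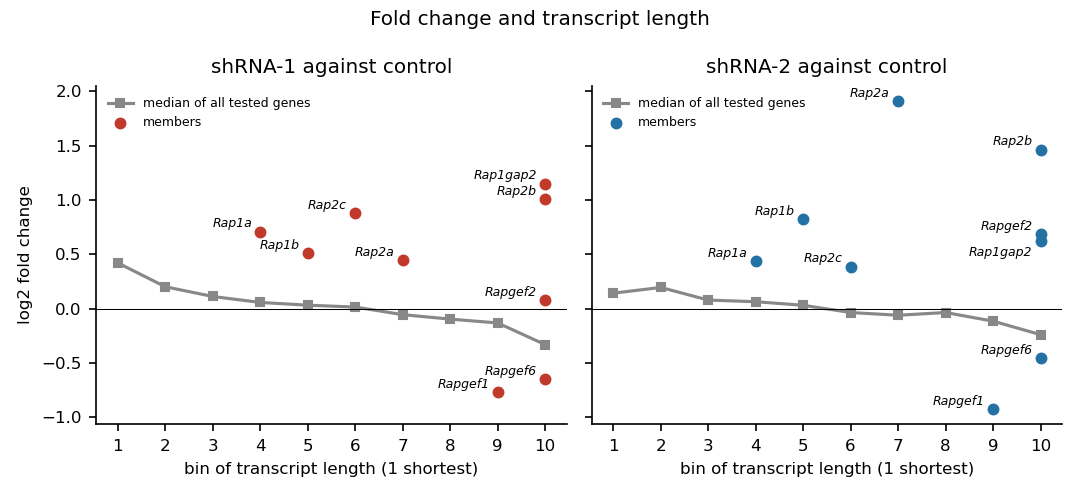
Log2 fold change against the control by bin of transcript length (1 shortest, 10 longest), with grey squares for the median of all tested genes in each bin and coloured points for the 9 genes, for shRNA-1 on the left and shRNA-2 on the right. The grey medians end at -0.33 for shRNA-1 and at -0.24 for shRNA-2, and Rapgef6 lies nearest to them among the genes called lower.

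Other genes followed the most variable of the 9 closely across the 9 libraries. Likeness was the root-mean-square difference of centred log2 CPM over 8681 genes with a mean of at least 5 CPM, and it is a description. Nearest to Rap2a were Eepd1 (0.12) and Vwa5a (0.14). Nearest to Rap2b were Edem1 (0.12) and Laptm4a (0.13), and nearest to Rap1gap2 were Rnf130 (0.13) and Rnf146 (0.16). Eepd1 averaged 10.6 ± 0.709 CPM with shRNA-1 and 31.1 ± 0.792 CPM with shRNA-2, against 7.95 ± 0.539 CPM with the control (SD, n = 3 each).

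The rest of the pathway was read from 6 lists of 67 other genes, of which 54 were tested. With shRNA-1, 9 were called higher and 9 lower, and with shRNA-2, 16 higher and 10 lower, against a background of 17.4% and 17.3% of all tested genes with shRNA-1 and 24.4% and 24.2% with shRNA-2. Some of these counts rested on single libraries. With shRNA-1, 5 were higher after leaving out shRNA-1 replicate 2 or either of control replicates 2 and 3, and 4 or 5 were lower without shRNA-1 replicate 3 or any 1 control, but 14 without shRNA-2 replicate 1. With shRNA-2, 4 to 6 were lower without shRNA-2 replicate 3 or any 1 control. Between the hairpins 6 were higher and 21 lower with shRNA-1, the second count being 13 without shRNA-1 replicate 1. Their median log2 fold change was -0.18 with shRNA-1 and 0.19 with shRNA-2, beside 0.02 and 0.00 over all tested genes. Adjusted p-values for these genes are from edgeR's quasi-likelihood test over all tested genes.

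Of 8 other exchange factors, 5 were tested. With shRNA-1, 1 rose and none fell, and with shRNA-2, none rose and 2 fell. Without shRNA-2 replicate 1, 2 fell with shRNA-1, and without shRNA-2 replicate 2, 1 did. Rasgrp2 (CalDAG-GEFI), which loads Rap1 after calcium and diacylglycerol signals, averaged 225 ± 33.6 CPM with shRNA-1 and 128 ± 18.4 CPM with shRNA-2, against 168 ± 8.74 CPM with the control. It rose with shRNA-1 (0.42 ± 0.14, adjusted p = 0.0387) and fell with shRNA-2 (-0.39 ± 0.14, adjusted p = 0.0368). The rise was lost without shRNA-1 replicate 1 or 2 or any 1 control (0.29 to 0.45), and the fall without shRNA-1 replicate 2, shRNA-2 replicate 1 or 3 or any 1 control (-0.43 to -0.33). Total-count scaling gave 0.17 for the rise, and removal of the length trend gave -0.11 for the fall, neither called. The difference between the hairpins was 0.81 ± 0.14 (adjusted p = 0.000874) and was called in 19 of 19 alternatives. Rapgef3 (EPAC1), the exchange factor opened by cAMP, was chosen after its values were seen, and averaged 18.2 ± 4.08 CPM with shRNA-1 and 14.6 ± 5.57 CPM with shRNA-2, against 26.6 ± 1.51 CPM with the control. It fell with shRNA-2 (-0.86 ± 0.23, adjusted p = 0.00928), and the value with shRNA-1 was -0.55 ± 0.23 (adjusted p = 0.0864). The shRNA-1 value was called without shRNA-2 replicate 1 (-0.55), as was the difference between the hairpins (0.66).

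The 7 genes for other GTPase-activating proteins and a chaperone were all tested, and 2 fell with shRNA-1 while 2 rose with shRNA-2. The first count was 1 without shRNA-1 replicate 3, and the second was 1 without shRNA-1 replicate 2, shRNA-2 replicate 1 or either of control replicates 1 and 2. Sipa1, which turns Rap1 off in blood cells, fell with shRNA-1 (56.8 ± 2.71 CPM, against 81.8 ± 9.45 CPM with the control, -0.52 ± 0.13, adjusted p = 0.00853). With shRNA-2 Sipa1 averaged 70.7 ± 7.37 CPM (-0.21 ± 0.13, adjusted p = 0.19). Its hairpin difference was -0.32 ± 0.13 (adjusted p = 0.0671) and was called without shRNA-2 replicate 2 (-0.40) or control replicate 1 (-0.33). Rasa3, which acts on both Ras and Rap, was called with neither hairpin, at -0.19 ± 0.12 with shRNA-1 (adjusted p = 0.231) and 0.24 ± 0.12 with shRNA-2 (adjusted p = 0.113), the second being called without shRNA-2 replicate 2 (0.32). The hairpins differed in Rasa3 by -0.44 ± 0.12 (adjusted p = 0.0126), a call lost without shRNA-1 replicate 3 (-0.40). Sipa1l1, a relative of Sipa1 chosen after its values were seen, rose with shRNA-2 to 23.3 ± 0.115 CPM, against 10.2 ± 1.89 CPM with the control (1.19 ± 0.19, adjusted p = 0.000433), and stood at 9.60 ± 2.78 CPM with shRNA-1.

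The 21 genes listed as effectors encode proteins that bind active Rap or, like Stk4, are linked to it through another protein. Of these, 17 were tested, 2 rose and 4 fell with shRNA-1, and 4 rose and 5 fell with shRNA-2. With shRNA-1, 2 fell without shRNA-1 replicate 1 or 3 or any 1 control, 7 fell without shRNA-2 replicate 1, none fell with the ribosomal RNA covariate (edgeR) and 1 rose without control replicate 2. With shRNA-2, 2 or 3 fell without shRNA-2 replicate 2 or 3 or any 1 control, and 2 with that covariate. Scaling to total counts left 1 higher with each hairpin. Braf, a kinase of the mitogen-activated pathway, fell to 15.2 ± 2.49 CPM with shRNA-1 and 20.4 ± 2.35 CPM with shRNA-2, against 27.5 ± 1.32 CPM with the control (-0.85 ± 0.15 and -0.43 ± 0.14, adjusted p = 0.0014 and 0.0262). The Braf call with shRNA-2 was lost without shRNA-2 replicate 2 or 3 or any 1 control (-0.44 to -0.35). Tln1 encodes talin, which binds integrin tails. It fell to 149 ± 16.2 CPM with shRNA-1, against 289 ± 13.2 CPM with the control (-0.96 ± 0.16, adjusted p = 0.00119). With shRNA-2 it averaged 218 ± 47.0 CPM and was called at the edge of the threshold (-0.41 ± 0.16, adjusted p = 0.0498), a call lost without any 1 library but shRNA-2 replicate 1 (-0.49 to -0.24). Rgs14, a scaffold with domains that bind Rap, rose by 0.72 ± 0.18 with the first hairpin (adjusted p = 0.0108) and also with shRNA-2 (0.67 ± 0.18, adjusted p = 0.00941), the first lost without control replicate 2 (0.56). Rassf5 and Arap3 were chosen after their values were seen. Rassf5 (RAPL), which links Rap1 to integrins and to the kinase Stk4, rose with shRNA-2 to 162 ± 7.22 CPM, against 72.8 ± 8.16 CPM with the control (1.15 ± 0.13, adjusted p = 2.98e-05). Arap3, a GTPase-activating protein for other small GTPases that binds Rap, fell with shRNA-2 to 43.9 ± 13.2 CPM, against 101 ± 4.02 CPM with the control (-1.19 ± 0.19, adjusted p = 0.000326). With shRNA-1, Rassf5 was 0.28 ± 0.13 (adjusted p = 0.11) and Arap3 -0.49 ± 0.19 (adjusted p = 0.0618), the second called without shRNA-2 replicate 1 or 2 (-0.49).

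Of 11 genes listed as adaptors of receptors and integrins, 9 were tested. With shRNA-1, 1 rose and 1 fell, and with shRNA-2, 4 rose and none fell. The single rise with shRNA-1 was lost without shRNA-1 replicate 2 or 3 or either of control replicates 2 and 3. Nedd9, a docking protein of integrin signalling, averaged 22.9 ± 2.44 CPM with shRNA-1 and 46.7 ± 11.5 CPM with shRNA-2, against 33.0 ± 4.92 CPM with the control. It fell with shRNA-1 (-0.52 ± 0.19, adjusted p = 0.0483) and rose with shRNA-2 (0.50 ± 0.18, adjusted p = 0.0391). The fall was lost without any 1 library but shRNA-2 replicates 1 and 2 (-0.63 to -0.40), and the rise without any 1 library but shRNA-2 replicate 2 and control replicate 3 (0.41 to 0.50). The shRNA-1 value was 0.0039 once a ribosomal RNA covariate was fitted. Crk and Fyb were chosen after their values were seen. Crk, the adaptor that carries Rapgef1, rose with shRNA-2 to 51.4 ± 6.06 CPM, against 25.1 ± 1.02 CPM with the control (1.03 ± 0.15, adjusted p = 0.000175), and averaged 27.7 ± 5.42 CPM with shRNA-1 (adjusted p = 0.489). Fyb (ADAP), an adaptor of integrin activation, rose with shRNA-2 to 83.6 ± 24.2 CPM, against 32.8 ± 4.78 CPM with the control (1.35 ± 0.23, adjusted p = 0.000612), and averaged 25.8 ± 7.53 CPM with shRNA-1 (adjusted p = 0.288).

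The 6 enzymes that attach and finish the lipid anchors of small GTPases were all tested, 1 rose and 2 fell with shRNA-1, and none rose and 3 fell with shRNA-2. The single rise was lost without shRNA-1 replicate 2 or 3 or either of control replicates 1 and 3, and 1 rose with shRNA-2 without shRNA-2 replicate 1. Fntb, the catalytic subunit of farnesyltransferase, fell to 6.69 ± 0.226 CPM with shRNA-1 and 13.9 ± 1.34 CPM with shRNA-2, against 19.1 ± 1.19 CPM with the control (-1.51 ± 0.14 and -0.46 ± 0.13, adjusted p = 4.94e-05 and 0.0124). The fall with shRNA-2 was lost without control replicate 2 (-0.41). Rap1 itself is geranylgeranylated, and Pggt1b, the catalytic subunit for that step, was called with neither hairpin. Icmt, which methylates the anchored end, fell with both hairpins (-0.52 ± 0.17 and -0.49 ± 0.17, adjusted p = 0.0361 and 0.0312). The Icmt calls were lost without shRNA-1 replicate 2 or 3 or any 1 control for shRNA-1 (-0.56 to -0.42), and without shRNA-2 replicate 1 or 3 or any 1 control for shRNA-2 (-0.50 to -0.42).

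Of 14 other Ras-family GTPases, 10 were tested, of which 4 were higher with shRNA-1 and 6 with shRNA-2. None was lower with either (edgeR quasi-likelihood test), but 1 was lower with each under total-count scaling, and 1 with shRNA-2 under the replicate block or with no filter on low counts. Ralb, a GTPase of vesicle traffic and survival signalling, rose to 108 ± 6.64 CPM with shRNA-1 and 114 ± 16.5 CPM with shRNA-2, against 43.5 ± 7.05 CPM with the control (1.31 ± 0.15 and 1.39 ± 0.14, adjusted p = 0.000162 and 2.02e-05). Mras, a relative of the classical Ras proteins, rose with shRNA-2 (1.01 ± 0.18, adjusted p = 0.000679) and, at the edge of the threshold, with shRNA-1 (0.52 ± 0.19, adjusted p = 0.0467), the second lost without any 1 library but shRNA-2 replicates 1 and 2 (0.47 to 0.58) and under the replicate block (0.52). The medians of this list were 0.36 with shRNA-1 and 0.49 with shRNA-2, beside 0.71 and 0.82 for the 5 Rap GTPases. The Rap GTPases were selected on these same differences, so their higher medians follow from that choice and show no excess over the family.

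**Figure D5:**
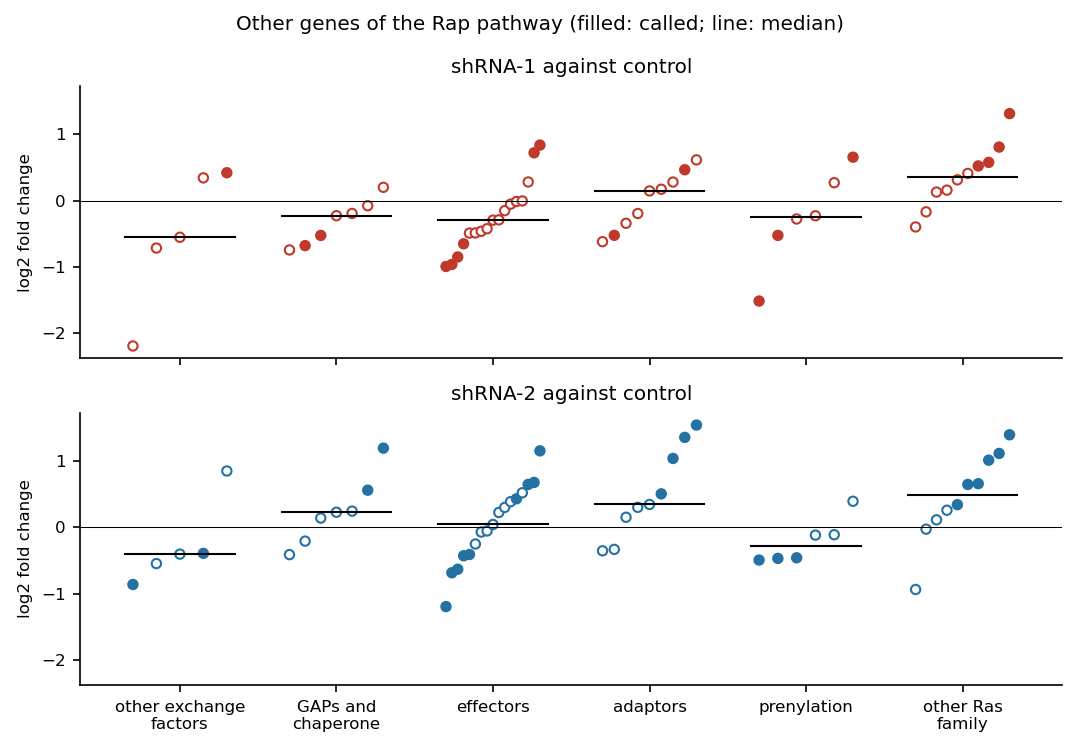
Log2 fold change against the control of every tested gene in 6 lists of the Rap pathway, with shRNA-1 above and shRNA-2 below, filled points for called genes and a black line for the median of each list. No other Ras-family GTPase was called lower with either hairpin, although 1 was with each under total-count scaling, and the lowest filled point with shRNA-1 is Fntb at -1.51.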

How the data were processed

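The authors deposited a table of unnormalised counts for each library, with gene symbols as names, and the submitters' processing notes list HTSeq 0.6.0, STAR 2.3.0e and mm10. No source used here gives the gene annotation, whether strand was used in counting or how reads with several positions were treated. The tables had 39179 entries and 38926 symbols, and 176 symbols with more than 1 entry were summed. filterByExpr kept 12663 genes and removed 0.0908% of the counts. TMM scaling and edgeR 4.0.16 (R 4.3.3) fitted all 9 libraries with the group as the only term (common biological coefficient of variation 0.165), and the quasi-likelihood test was adjusted by the Benjamini-Hochberg method at 0.05. The pipeline was tested on simulated data. CPM are TMM-scaled, and fold changes are log2 ± SE.

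The 9 genes, the other lists and the markers were chosen with earlier results of these data known. From each list the text names the genes called in both comparisons with the control (up to 4, by size), or its 2 most abundant genes where none was, and other genes are marked in the text as chosen after their values were seen. Some genes that this rule picks are not reported here. Positions, lengths and shared 50-base stretches came from GENCODE M21, matched for 12019 tested genes (94.9%). Motifs and promoters came from RefSeq. Alternatives were 2 other scalings, 2 other filters, DESeq2 1.42.0, limma-voom (limma 3.58.1), a replicate block, pairs of groups alone, the ribosomal RNA share as a covariate, length-trend removal and leaving out each library. Counts carry no molecular identifiers as far as the sources state, so errors cover the spread between libraries only. All 3 same-numbered pairs of shRNA-2 and control libraries correlated above 0.1, and not all did in the other comparisons. The main fit did not use this pairing, so its p-values are unpaired in every comparison. With the replicate number as a block, 6645 genes were called with shRNA-2, against 6162 in the main fit. Libraries of a group differed from each other far beyond counting noise, at 19.2 to 139 chi-square per degree of freedom, so none was the same library read again. This check cannot tell separate cultures from separate libraries of 1 culture.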

Additional observations from a re-analysis of the deposited data

Results flagged for a closer look

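Values differed between the 2 hairpins for the genes below (shRNA-1 minus shRNA-2, log2). The 3 Rap genes among them were selected on these same differences, so their values are a description without a test. Rap2a differed by -1.46 (0.45 with shRNA-1 and 1.91 with shRNA-2, each against the control). Rap2c differed by 0.49 (0.88 and 0.39, in the same order), and Rapgef2 by -0.61 (0.08 and 0.68).

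Among the other pathway genes, with adjusted p from edgeR's quasi-likelihood test, Rasgrp2 differed by 0.81 (adjusted p = 0.000874) and Nedd9 by -1.03 (adjusted p = 0.00119), and for both the values against the control had opposite signs, 0.42 with shRNA-1 and -0.39 with shRNA-2 for Rasgrp2, and -0.52 and 0.50 in the same order for Nedd9. Several alternatives ended these 4 calls, with Rasgrp2 at 0.17 with shRNA-1 under total counts and at -0.11 with shRNA-2 after removal of the length trend, and Nedd9 at 0.0039 with shRNA-1 under the ribosomal RNA covariate. Rasa3 differed by -0.44 (adjusted p = 0.0126) although neither comparison with the control was called. Tln1 (-0.55, adjusted p = 0.0163), Braf (-0.42, adjusted p = 0.0399) and Fntb (-1.05, adjusted p = 0.000158) were lower with shRNA-1 than with shRNA-2, and lower with both than in the control. Mras (-0.49, adjusted p = 0.0476) was higher than the control with both and higher with shRNA-2. Leaving out 1 library ended the difference for Rasa3 (shRNA-1 replicate 3, -0.40), for Tln1 (shRNA-1 replicate 1 or shRNA-2 replicate 3, both -0.47), for Braf (shRNA-1 replicate 1 or 2, shRNA-2 replicate 1 or 3 or control replicate 2, -0.44 to -0.31) and for Mras (any but shRNA-2 replicate 2, -0.54 to -0.43).

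Of the genes chosen after their values were seen, Sipa1l1 differed by -1.27 (adjusted p = 0.000472), Rassf5 by -0.87 (adjusted p = 0.000271), Crk by -0.89 (adjusted p = 0.000707) and Fyb by -1.69 (adjusted p = 0.000218), each higher with shRNA-2. Arap3 differed by 0.71 (adjusted p = 0.0108) and was lower with shRNA-2. Groups of 3 libraries are too small for a check of single outlying libraries.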

How the results depend on the processing

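Every log2 fold change of the 9 genes kept its sign in 19 of 19 alternatives except Rapgef2 with shRNA-1, which kept it in 17 (-0.17 to 0.34). Total-count scaling put the all-gene median at -0.23 (shRNA-1) and -0.21 (shRNA-2), and the share of higher genes among calls at 23.8% and 33.6%. Under it 3 of the 9 genes were called higher with shRNA-2. Of the other pathway genes, 4 rose and 15 fell with shRNA-1, and 9 rose with shRNA-2.

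The ribosomal RNA share as a covariate left 1358 of 4389 genes called with shRNA-1 and, of the 9 genes, 3 higher and 0 lower there. Other pathway genes then numbered 4 higher and 1 lower with shRNA-1, 6 lower with shRNA-2 and 13 lower between hairpins. With the length trend removed, 1 of the 9 was lower with each hairpin and 6 other pathway genes were lower with shRNA-2. Either change made 2 of the 9 higher between hairpins. Rap2a with shRNA-1 was also lost with no filter (0.41), which left 3 other pathway genes higher between hairpins. Fitting pairs of groups alone gave 14 other pathway genes lower with shRNA-1. Lower calls of the 9 between hairpins were 1 under limma-voom, pairs alone, the length trend removal and the block. The causes were not tested.

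Leaving out 1 library gave 2916 to 5178 calls with shRNA-1 (fewest without control replicate 3, 2916, and shRNA-1 replicate 2, 2925). Of the 9 genes, 4 to 6 were then called higher and 2 lower with shRNA-1. With shRNA-2, 4 to 7 were called higher and 1 to 2 lower, and between hairpins 1 to 2 higher and 1 to 3 lower. Of the other pathway genes, 5 to 9 were higher and 4 to 14 lower with shRNA-1, 4 to 9 lower with shRNA-2 and 13 to 22 lower between hairpins.

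The labels do not say what the replicate numbers stand for. Deviations of same-numbered libraries correlated over 0.1 in 7 of 9 pairs (-0.14 to 0.38), and those of differently numbered ones in 1 of 18. All 3 pairs of shRNA-2 and control were over 0.1 and 2 of 3 in each comparison with shRNA-1, and 5 of 9 libraries were closest to their own number. With the number as a block, 4963 genes were called with shRNA-1, 6645 with shRNA-2 and 5640 between hairpins, and the counts of the 9 genes were as above except that Rapgef2 lost its call between hairpins (-0.58). Of the other named genes, Mras lost its call with shRNA-1 (0.52) and between hairpins (-0.49), and Rapgef3 (-0.58) and Arap3 (-0.50) gained one with shRNA-1.

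Signs turned, none past the threshold, for Rasa3 (0.033), Nedd9 (0.0039), Sipa1l1 (0.20), Arap3 (0.019) and Crk (-0.11) with shRNA-1 under the ribosomal RNA covariate. For Sipa1l1 with shRNA-1 this also held under the length trend removal (0.27) and without shRNA-1 replicate 3 (0.074) or control replicate 3 (0.050), in a range of -0.35 to 0.074 over single libraries. For Crk it held under total counts (-0.11) and without shRNA-1 replicate 3 (-0.024 to 0.25 over single libraries). Between hairpins it held for Icmt under the length trend removal (0.0019) and without shRNA-1 replicate 3 (0.077) or shRNA-2 replicate 2 (0.086), for Rgs14 without shRNA-2 replicate 3 (-0.11 to 0.22 over single libraries) and for Ralb without shRNA-2 replicate 1 (0.026).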
